A study of Mus musculus with 31 samples.

Results

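Skin of SHARPIN-deficient cpdm mice was compared with wild type skin at 2 weeks of age, the youngest age of a series that followed both genotypes to 10 weeks. The comparison used 6 of the 31 arrays of the series, 3 of each genotype, and covered 19938 genes, each represented by the probe set with 1 gene symbol and the highest mean signal over all arrays. The mutant mice were homozygous, C57BL/KaLawRij-Sharpincpdm/Sharpincpdm RijSunJ, and the wild type mice were C57BL/6J. All mice were female and untreated as far as the labels say, whole skin was sampled, and the series design describes each sample as taken from a mouse of its own. The labels name no litter, body site or lesion score, so a visible state of the skin at 2 weeks cannot be attached to these arrays. Because the genotypes lie on different C57BL substrains, the Sharpin mutation and the substrain cannot be told apart.

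SHARPIN is 1 of the subunits of the linear ubiquitin chain assembly complex (LUBAC), with HOIP, encoded by Rnf31, and HOIL-1, encoded by Rbck1. The complex attaches linear ubiquitin chains at the tumour necrosis factor (TNF) receptor and other receptors, which supports NF-kB signalling and restrains cell death. Mice without SHARPIN develop chronic proliferative dermatitis, with a thickened, scaling epidermis, dying keratinocytes and infiltrating granulocytes and macrophages.

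At 2 weeks 11 genes differed between the genotypes, which is 0.0552% of the genes tested. Of these, 8 genes were higher in cpdm skin (0.0401%) and 3 were lower (0.015%; limma with Benjamini-Hochberg adjustment over all genes, called at an adjusted p below 0.05). The genes that rose encode a stefin, Stfa3; an acute phase serpin, Serpina3n; a chemotactic ligand of epithelia, 2610528A11Rik; the interleukin 36 alpha cytokine, Il1f6; the chemokine Cxcl16; the cornified envelope protein hornerin, Hrnr; the light chain of MHC class I, B2m; and a little studied serpin, Serpina16. The genes that fell were Sharpin, the tektin gene Tekt5 and the glutamate receptor gene Gria2. All values below are log2 signals or differences of log2 signals, cpdm minus wild type, followed by ± the SE, the standard error from limma, over n = 3 and 3 arrays. The probe sets of different genes differ in brightness for reasons other than RNA level, so signals are compared between arrays, and genes are not ranked by signal. As a reference for dim probe sets, 1190 olfactory and vomeronasal receptor genes, which belong to the nose, had a median signal of 3.46 in these arrays, with the 5th and 95th percentiles at 2.38 and 5.32. Signals up to 5.32 are called dim below, and a fold against a dim group is that of the measured signals only.

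The promoters of 4 genes described below are shown because short sequence elements of inflammatory and hormonal signalling lie in them. They were chosen for these matches, and H2-Q4 was not among the genes called. Each run gives the 250 bases before the RefSeq gene start on the gene's strand in GRCm38.p6, and capitals mark the matches. B2m lies at chr2:122147437-122147686 on the plus strand, and the capitals are, from left to right, the letters of a TATA box on the opposite strand, an interferon element core and a kappaB motif. H2-Q4, another gene of MHC class I, lies at chr17:35379367-35379616 on the plus strand, with overlapping kappaB motifs and then a TATA box. 2610528A11Rik lies at chr14:37110102-37110351 on the minus strand, with an interferon element core and a TATA box. Serpina3n lies at chr12:104406458-104406707 on the plus strand, with a glucocorticoid element.
B2m: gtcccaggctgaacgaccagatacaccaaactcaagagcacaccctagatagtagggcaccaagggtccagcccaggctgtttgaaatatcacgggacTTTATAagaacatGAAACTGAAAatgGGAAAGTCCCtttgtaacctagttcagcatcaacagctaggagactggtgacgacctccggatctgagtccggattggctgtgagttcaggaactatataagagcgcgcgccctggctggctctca
H2-Q4: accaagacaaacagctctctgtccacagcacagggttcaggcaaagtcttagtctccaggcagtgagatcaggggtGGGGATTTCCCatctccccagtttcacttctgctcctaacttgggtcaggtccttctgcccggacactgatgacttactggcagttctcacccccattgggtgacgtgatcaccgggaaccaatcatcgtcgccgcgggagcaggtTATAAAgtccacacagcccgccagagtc
2610528A11Rik: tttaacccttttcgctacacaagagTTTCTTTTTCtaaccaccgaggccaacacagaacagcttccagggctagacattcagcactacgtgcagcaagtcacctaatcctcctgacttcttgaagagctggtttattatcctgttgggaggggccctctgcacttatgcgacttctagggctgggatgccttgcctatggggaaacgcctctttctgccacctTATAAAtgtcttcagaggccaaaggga
Serpina3n: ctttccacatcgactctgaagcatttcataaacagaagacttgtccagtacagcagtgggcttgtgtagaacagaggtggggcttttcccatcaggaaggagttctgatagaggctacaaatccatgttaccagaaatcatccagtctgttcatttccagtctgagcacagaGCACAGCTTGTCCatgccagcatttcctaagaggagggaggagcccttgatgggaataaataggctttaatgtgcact

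These elements were searched on both strands. The kappaB motif, the site of NF-kB proteins, was present in 3.75% of 27025 RefSeq promoters of the same length. The interferon element core, made of GAAA and again GAAA 2 bases further on, was present in 3.04%, the gamma-activated site, TTCNNNGAA, in 7.18%, the glucocorticoid element, made of the arms GNACA and TGTNC 3 bases apart, in 0.381% and the TATA box, TATAAA, in 13%. Of the 8 genes that rose, 6 had a promoter entry. Of these 6, the kappaB motif was in B2m alone, the interferon element core in B2m and 2610528A11Rik, the glucocorticoid element in Serpina3n, and the letters of the TATA box in B2m, 2610528A11Rik and Hrnr. Those letters began 27 bases before the start in 2610528A11Rik and 31 in Hrnr, but 152 in B2m and on the opposite strand. In B2m the interferon element core began 139 bases before the start and the kappaB motif 126 bases before it. Neither the promoter of Stfa3 nor that of Serpina16 held any of the 5 elements. The kappaB motif was in 9 of 19 promoters of the NF-kB target genes listed below (47.4%), in 6 of 19 chemokine promoters (31.6%) and in 3 of 13 promoters of the MHC class I list (23.1%). The NF-kB target list was made of genes known for such sites, so its share describes the list. A match of letters does not show that a factor was bound.

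Arrays that do not overlap were more often lower than higher across the genome, since 5.26% of all genes were higher in every cpdm array (1049 genes) and 9.84% lower (1962 genes). This held in each of 5 groups of genes of rising signal, from 171 higher and 202 lower genes among the dimmest to 292 and 496 among the brightest. An unadjusted p below 0.05 was found for 363 genes in the higher direction (1.82%) and 672 in the lower (3.37%). Over 19938 genes, a total of this size can arise at that threshold without any difference. Among the genes with an unadjusted p below 0.05, 23 were at least 2-fold higher and none was 2-fold lower. Of all genes 8087 had a positive difference and 11769 a negative one. The gene lists that follow are read against these shares, and no test was made of a list. With only 3 arrays of each genotype, arrays without overlap also arise for genes that do not differ.

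Sharpin, the mutated gene, had signals of 7.26, 7.40 and 7.43 in the cpdm arrays and 7.89, 7.92 and 7.90 in the wild type arrays. All 3 cpdm arrays lay below all 3 wild type arrays. The difference was -0.54 ± 0.09 (adjusted p = 0.0141), so wild type signal was 1.45-fold that of cpdm skin. The position of the mutation among the probes was not examined. The 40 measured genes nearest to Sharpin on chromosome 15, 20 on each side, were looked up because the strains could differ there. None of the 40 was called, where 0.0552% of all genes were, their median difference was -0.04 and they ranged from -0.29 to 0.16. Of the 40, 26 had a negative and 14 a positive difference. Every cpdm array was lower for 6 of them and higher for 1, where 9.84% and 5.26% of all genes were. Nnt, which is partly deleted in C57BL/6J, lay between 7.83 and 7.89 in the cpdm arrays and between 7.97 and 8.04 in the others (adjusted p = 0.997), and Samsn1, which is deleted in C57BL/KaLwRij mice, was 3.92 to 4.02 and 3.98 to 4.02, a dim signal in both groups. The wild type arrays of Nnt, from C57BL/6J mice, were thus the higher ones, so its deletion was not seen as a lower signal.

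The largest rise was that of Stfa3, which encodes a stefin, an inhibitor of cysteine proteases found in neutrophils and stressed keratinocytes. Its signal was 7.97, 7.92 and 7.14 in cpdm and 4.91, 4.87 and 5.35 in wild type arrays. The lowest cpdm array lay well above the highest wild type array, and the difference was 2.63 ± 0.43, or 6.20-fold in measured signal (adjusted p = 0.0158). The signal was dim in 2 of the 3 wild type arrays. The other 5 measured stefin and cystatin genes, Csta1, Cst3, Stfa2, Cstb and Cst6, had differences of -0.13 to 0.06. Several neighbouring stefin genes are near-identical, so RNA of one may hybridise to the probes of another. Of 16 measured neutrophil genes none was called, 12 had a positive difference and the median was 0.08. They ran from Elane, neutrophil elastase, at -0.21 to the alarmin gene S100a9 at 0.48, with its partner S100a8 at -0.05, Ly6g at 0.26 and the collagenase gene Mmp8, the 1 member without overlap, at 0.23. That share, 6.25%, was close to the 5.26% of all genes, and Mmp8 was dim in every array. Without cpdm replicate 2 the median was 0.02, without wild type replicate 3 it was 0.05, and with the 40% of genes of lowest signal left out it was 0.15. Averaged over the list, cpdm arrays had 4.72 to 4.84 and wild type arrays 4.63 to 4.75.

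Serpina3n encodes a secreted protease inhibitor induced in the acute phase. Its signal was 8.38, 9.29 and 8.23 in cpdm and 6.39, 7.03 and 6.66 in wild type arrays, without overlap. The difference was 1.94 ± 0.32, or 3.84-fold (adjusted p = 0.0158). Of 18 measured acute phase and complement genes Serpina3n was the 1 gene called. The list had a median difference of 0.30 against -0.03 for all genes, and the arrays did not overlap for 4 members (22.2% against 5.26% of all genes), all higher in cpdm skin. Ceruloplasmin, Cp, differed by 0.57 and complement factor B, Cfb, by 0.77, neither called. The plasma amyloids Saa1, Saa2 and Saa3 lay at 0.17, -0.14 and 0.18. Without cpdm replicate 2 the median of the list was 0.11.

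2610528A11Rik, now known as Gpr15lg, encodes a small secreted ligand of the receptor GPR15. Its signal was 7.43, 7.61 and 7.36 in cpdm arrays and 6.43, 6.12 and 6.43 in wild type arrays. The groups were separated by more than the range within either of them, with a difference of 1.14 ± 0.18, or 2.20-fold (adjusted p = 0.0141). Hrnr, a filaggrin-like protein of the cornified envelope, had 10.92, 11.14 and 11.05 in cpdm and 10.17, 10.23 and 10.41 in wild type skin. Its difference was 0.77 ± 0.15 (adjusted p = 0.0453).

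**Figure D1:**
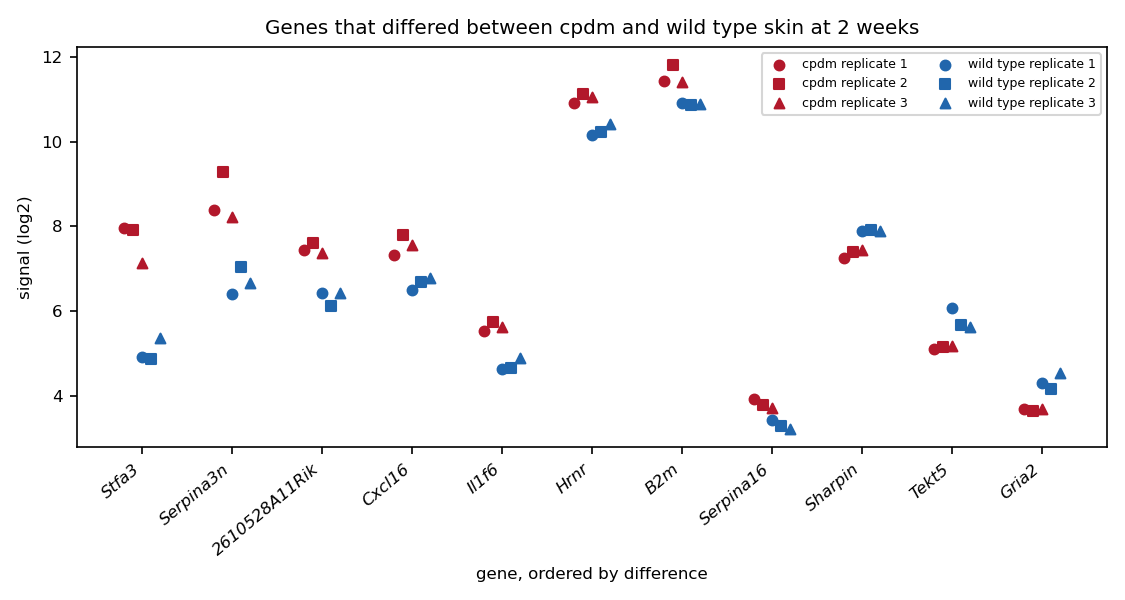
Log2 signal of the 11 genes called at 2 weeks in each of the 6 arrays, ordered by the difference between the genotypes; red symbols are cpdm arrays, blue symbols wild type arrays, and the shape gives the replicate number. The arrays of the groups do not overlap for any of the 11, and the signals of Gria2 and Serpina16 are at most 4.54.

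Cytokines of the interleukin 36 branch stood highest among the 17 measured genes of the interleukin 1 family. Il1f6, interleukin 36 alpha, had 5.52, 5.73 and 5.62 in cpdm and 4.63, 4.66 and 4.88 in wild type skin. It rose by 0.90 ± 0.16 (adjusted p = 0.0205). Il1f9, interleukin 36 gamma, had 6.70, 7.36 and 7.12 against 5.53, 5.75 and 5.59. Its difference of 1.44 ± 0.31 was larger than that of Il1f6 but did not pass (adjusted p = 0.118). Il1f8, interleukin 36 beta, had 4.52, 5.07 and 4.40 against 3.67, 4.07 and 3.93, a difference of 0.77 ± 0.19 (adjusted p = 0.232). All 6 arrays of Il1f8 and the wild type arrays of Il1f6 were dim. The arrays of the groups did not overlap for any of the 3 agonists. The receptor gene Il1rl2 differed by 0.19 and the antagonist Il1f5 by 0.25, both also without overlap and neither called. The classical members had smaller differences, with Il1a at 0.06, Il1b at 0.15, Il1rn at 0.00, Il18 at 0.21 and Il33 at 0.13. In the family 16 of 17 members had a positive difference, and the median was 0.19, or 0.10 without cpdm replicate 2. For 5 of the 17 every cpdm array was higher (29.4%, against 5.26% of all genes), and for none was every cpdm array lower.

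Genes of the LUBAC and of TNF receptor signalling other than Sharpin were not called. Rnf31 differed by 0.10 and Rbck1 by -0.08, and the deubiquitinase genes Otulin and Cyld by 0.06 and 0.16. Tnf itself had 5.72, 5.69 and 5.81 in cpdm and 5.84, 5.59 and 5.76 in wild type arrays, which overlapped. The receptor gene Tnfrsf1a differed by 0.02. The feedback inhibitor gene Tnfaip3, encoding A20, differed by 0.18 and Birc3 by 0.28. The median of the 19 measured genes was 0.06.

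Of 23 measured NF-kB target genes none was called. For 10 of them (43.5%, against 5.26% of all genes) all cpdm arrays lay above all wild type arrays. The median difference was 0.18, and 20 of 23 members had a positive difference. Lcn2, the siderophore-binding lipocalin, had 6.30, 6.68 and 6.53 in cpdm and 5.63, 5.35 and 5.34 in wild type arrays, a difference of 1.06 ± 0.28 (adjusted p = 0.355). Irf1 differed by 0.57, Nfkbie by 0.38, Nfkb2 by 0.35, Icam1 by 0.34, Nfkbiz by 0.33 and Nfkbia by 0.27. The arrays of these 6 also did not overlap.

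Cxcl16, a membrane-bound chemokine of epithelium and macrophages, was the 1 chemokine called. It had 7.33, 7.79 and 7.55 in cpdm and 6.50, 6.69 and 6.78 in wild type skin, and rose by 0.90 ± 0.16, or 1.87-fold (adjusted p = 0.0205). Of 28 measured chemokines 10 were higher in every cpdm array (35.7%, against 5.26% of all genes). None was lower in every one, and the median was 0.25. Ccl19, which draws dendritic cells and naive T cells, had 7.97, 8.62 and 7.83 against 6.70, 6.93 and 6.71 (1.36 ± 0.35, adjusted p = 0.293). Cxcl10, induced by interferon, had 7.07, 8.14 and 7.48 against 6.41, 6.21 and 6.44 (1.21 ± 0.30, adjusted p = 0.271). Cxcl9 differed by 1.31, Ccl8 by 0.93 and Ccl20 by 0.52. The neutrophil chemokines Cxcl1, Cxcl2, Cxcl3 and Cxcl5 lay at -0.04, 0.27, 0.00 and -0.01. cpdm replicate 2 had the highest mean chemokine signal, 6.12 against 5.85 in both other cpdm arrays and 5.57 to 5.62 in wild type arrays, and the median was 0.14 without it. With the 40% of genes of lowest signal left out it was 0.42.

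B2m, the shared light chain of MHC class I, had 11.43, 11.81 and 11.41 in cpdm and 10.91, 10.86 and 10.90 in wild type skin. It rose by 0.66 ± 0.13, or 1.58-fold (adjusted p = 0.0453). All 15 measured genes of the MHC class I and antigen processing list had a positive difference. For 10 the arrays did not overlap (66.7%, against 5.26% of all genes), and the median was 0.29, or 0.25 without cpdm replicate 2. H2-Q4 had 8.02, 8.58 and 8.18 against 7.55, 7.36 and 7.20, a difference of 0.89 ± 0.20 (adjusted p = 0.147). Nlrc5, the transactivator of class I genes, had 9.10, 9.64 and 9.44 against 8.78, 8.49 and 8.53 (0.79 ± 0.19, adjusted p = 0.183). The immunoproteasome genes Psmb8 and Psmb9 differed by 0.87 and 0.55 and the peptide transporter gene Tap1 by 0.57. H2-K1 and H2-D1 share their probe sets with other genes and were left out.

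The 9 measured MHC class II genes also all had positive differences, with a median of 0.52 and no member called. Cd74, the invariant chain, had 8.60, 9.30 and 8.55 against 8.22, 8.30 and 7.95, and H2-Aa had 8.72, 9.59 and 8.64 against 8.24, 8.38 and 8.36. cpdm replicate 2 was the highest array for both genes, and without it the median was 0.21. Ciita, the class II transactivator, differed by 0.01. Of 18 measured interferon response genes 3 were higher in every cpdm array (16.7%, against 5.26% of all genes). In every cpdm array 1 was lower (5.56%, against 9.84%), and none was called. The GTPase genes Iigp1 and Gbp3 differed by 1.05 and 0.61 and Irf9 by 0.29, all 3 without overlap. The antiviral genes gave values of both signs, with Ifit1 at 0.49, Ifit2 at -0.40, Oasl2 at 0.26, Oas2 at -0.04 and Rsad2 at -0.10. The median of the list was 0.10, with 0.03 without cpdm replicate 2 and -0.05 without wild type replicate 2.

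Among markers of infiltrating cells none was called in the lists of macrophages, neutrophils, dendritic cells, T and NK cells, B cells, eosinophils or mast cells. Since 0.0552% of all genes were called, a call in lists of this size was unlikely in any case. The macrophage list had a median of 0.20, with mean signals of 5.72, 6.10 and 5.66 in cpdm and 5.67, 5.71 and 5.56 in wild type arrays. Without cpdm replicate 2 that median was 0.01, so its value rested on this array. Of the 17 macrophage genes 2 were higher in every cpdm array (11.8%, against 5.26% of all genes) and none was lower. Dendritic and Langerhans cell genes had a median of 0.13, or 0.03 without cpdm replicate 2, with Itgax at 0.54, Ccr7 at 0.31 and Cd207, langerin, at 0.30. Of these 16 genes 3 were higher in every cpdm array (18.8%, against 5.26% of all genes) and 1 lower (6.25%, against 9.84%). T and NK cell genes had a median of 0.05. In every cpdm array 2 members were higher and 2 lower (9.52% each, against 5.26% and 9.84% of all genes). The share lower was thus close to that of all genes. Cd2 and Nkg7 were the higher ones, both at 0.27, and Cd3e at -0.17 and Klrb1c at -0.20 the lower ones. In whole skin, fewer cells of a type and less RNA per cell cannot be told apart. The part of infiltrating cells in the differences of class II genes and chemokines was not tested.

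Of 21 type 2 cytokine genes and targets, 7 were higher in every cpdm array (33.3%, against 5.26% of all genes). In every one 2 were lower (9.52%, against 9.84%), and none was called. Il13ra2, the decoy receptor of interleukin 13, had 5.35, 5.65 and 5.38 in cpdm and 4.23, 4.39 and 4.36 in wild type skin. Its difference was 1.13 ± 0.24 (adjusted p = 0.106). Alox15, a lipoxygenase of macrophages and eosinophils, differed by 0.74. The cytokine genes Il4 and Il13 differed by -0.21 and 0.06. The list's median was 0.15, or 0.08 without cpdm replicate 2. Among genes of regulated cell death, the pore-forming gasdermin gene Gsdmc had 6.19, 6.05 and 5.66 against 4.98, 5.01 and 4.76 (1.05 ± 0.28, adjusted p = 0.324), and the inflammatory caspase gene Casp4 differed by 0.83 and the death receptor gene Fas by 0.41. Casp8, Ripk3 and Mlkl, which act in apoptosis and necroptosis downstream of TNF, differed by 0.13, -0.13 and -0.09. The median of the 19 measured cell death genes was 0.10.

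In the epidermis Hrnr was accompanied by positive values of other suprabasal genes. Of 27 measured genes of the cornified envelope and epidermal differentiation list, 10 were higher in every cpdm array (37%, against 5.26% of all genes). None was lower in every one, and the median was 0.14. The median was 0.22 without wild type replicate 1 and 0.24 with the genes of lowest signal left out. Krt1, the keratin of suprabasal cells, had 10.39, 10.40 and 10.44 in cpdm and 9.52, 9.51 and 9.69 in wild type skin (0.84 ± 0.29, adjusted p = 0.783). The cpdm arrays of Krt1 lay within 0.05 of each other, while the SE of the fit pools the spread of all ages. Fitted on the 6 arrays alone, the same difference had an adjusted p of 0.00981. Krtdap differed by 0.58, loricrin, Lor, by 0.46 and Krt10, the partner of Krt1, by 0.43, while involucrin, Ivl, differed by -0.09 and Flg2 by 0.24. Basal keratinocyte genes had a median of 0.10, or 0.03 without cpdm replicate 2, with Krt5 at 0.08, Krt14 at 0.16 and Trp63 at 0.02.

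Stress keratins gave mixed values. Krt6b had 7.02, 7.17 and 6.67 against 5.16, 5.25 and 5.36, a difference of 1.70 ± 0.46 (adjusted p = 0.378, or 0.00577 with the 6 arrays alone). Its companions Krt6a, Krt16 and Krt17 differed by 0.23, 0.62 and 0.01. The small proline-rich genes Sprr1b, Sprr2d and Sprr2h lay at -0.21, 0.22 and -0.24. The median of the 26 measured genes of keratinocyte stress and hyperplasia was 0.08. It was 0.04 without wild type replicate 3, 0.18, 0.15 and 0.13 without cpdm replicate 1 and wild type replicates 1 and 2, and 0.22 with the genes of lowest signal left out. Of 17 genes of hypoxia and glycolysis 9 were higher in every cpdm array (52.9%, against 5.26% of all genes), with none called. Among the 9 were Bnip3 at 0.61, Egln3 at 0.56 and the glucose transporter gene Slc2a1 at 0.40.

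**Figure D2:**
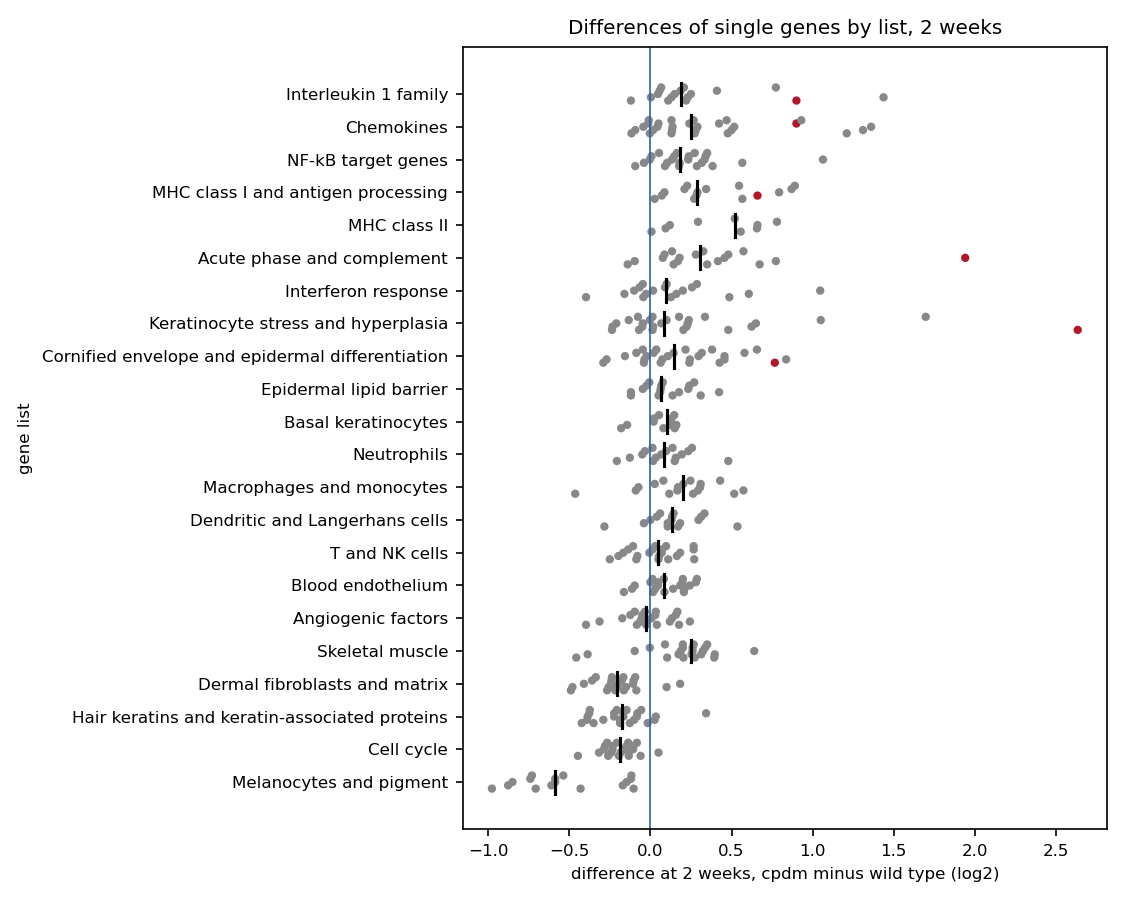
Difference in log2 signal at 2 weeks, cpdm minus wild type, of each measured gene (dot) in 22 gene lists; red dots are genes called by limma, black bars are list medians and the blue line is no difference. Medians run from 0.52 for MHC class II to -0.59 for melanocytes and pigment.

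Pigment genes had the most negative median of the lists in the plot of differences by list, -0.59 over 16 measured members, all of them negative. For 9 of the 16 (56.2%, against 9.84% of all genes) every cpdm array lay below every wild type array, and none was called. Mc1r, the melanocortin receptor, had 6.15, 5.94 and 5.86 in cpdm and 6.58, 6.28 and 6.70 in wild type skin (-0.54 ± 0.16, adjusted p = 0.545). Tyr, tyrosinase, differed by -0.98, Mlana by -0.88 and Pmel by -0.73. Kitl, the stem cell factor that melanocytes depend on, had 7.89, 6.66 and 7.45 against 8.38, 8.11 and 8.21. Its difference was -0.90 ± 0.24 (adjusted p = 0.337), the largest negative value among the genes named outside the lists, while its receptor gene Kit differed by -0.12. The mean pigment signal was 8.12, 7.25 and 7.91 in cpdm and 8.29, 8.21 and 8.34 in wild type arrays. cpdm replicate 2 was far below the others, and without it the median of the list was -0.25. With the genes of lowest signal left out it was -0.38. The lists of melanocytes, of hair keratins and of the cell cycle all follow the hair growth phase in mouse skin, and the phase of these samples is not given.

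Genes of the growing follicle also had mostly negative values. Of 24 measured hair keratin and keratin-associated protein genes, 6 were lower in every cpdm array (25%, against 9.84% of all genes). None was higher in every one, and the median was -0.18, or -0.11 without cpdm replicate 1. Corin, a serine protease of the dermal papilla, had 6.99, 6.67 and 6.81 against 7.65, 7.72 and 7.31 (-0.74 ± 0.22, adjusted p = 0.592). Shh differed by -0.34 and Lef1 by -0.39. Corin and Shh belong to a list of 28 hair follicle stem cell and growth signal genes, of which 20 were negative and 8 positive. Its median was -0.105. There 7 genes were lower in every cpdm array (25%, against 9.84% of all genes) and 1 higher (3.57%, against 5.26%). Inner root sheath keratins lay near 0, with Krt25 at -0.14, Krt27 at -0.02 and Krt71 at -0.04. The list of the inner root sheath and companion layer held 6 positive and 9 negative genes, with a median of -0.02. Cyclin D1, Ccnd1, had 9.22, 8.62 and 8.77 in cpdm and 9.69, 9.65 and 9.68 in wild type skin (-0.80 ± 0.25, adjusted p = 0.616). In the cell cycle list 21 of 22 genes were negative. In every cpdm array 3 were lower (13.6%, against 9.84% of all genes), and the median was -0.19. That value rested on 1 array, since the mean signal was 8.10, 7.62 and 8.01 in cpdm against 8.09 to 8.12 in wild type arrays, and the median was -0.04 without cpdm replicate 2.

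Connective tissue and muscle genes mostly had values of opposite sign. Of 23 measured fibroblast and matrix genes 21 were negative and 3 were lower in every cpdm array (13%, against 9.84% of all genes), with a median of -0.21. Col1a1 differed by -0.36 and Fap by -0.48, and outside the list the microfibril gene Mfap4 had 8.31, 8.62 and 8.09 against 9.18, 9.15 and 8.73. The fibroblast median was -0.31 without cpdm replicate 2 and -0.12 without cpdm replicate 3. For 15 of 23 skeletal muscle genes (65.2%, against 5.26% of all genes) every cpdm array lay above every wild type array. The median was 0.25, or 0.16 without cpdm replicate 2. Myh1, a fast myosin, had 10.33, 10.58 and 10.51 against 10.06, 9.74 and 9.70. Of the 23 genes 19 had a positive and 4 a negative difference. Another myosin gene, Myh8, was among the 4, with 8.03, 7.70 and 7.57 against 8.33, 8.26 and 7.87 (-0.39). Muscle lies below the dermis of mouse skin, and the depth of the sample was not recorded, so the part of sampling depth in these values was not tested.

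Of the genes of blood vessels none was called at 2 weeks, among 22 angiogenic factors, 20 endothelial genes, 11 adhesion molecules and 13 inhibitors of angiogenesis. In blood endothelium 16 of 20 genes had a positive difference. In every cpdm array 5 were higher (25%, against 5.26% of all genes) and 2 lower (10%, against 9.84%). Plvap differed by 0.29, Flt1 by 0.28 and Pecam1 by 0.21, while the receptor genes Kdr and Tek, at -0.16 and -0.11, were the lower ones. The mean endothelial signal was 7.07, 7.07 and 7.13 in cpdm and 7.03, 6.92 and 7.04 in wild type arrays, without overlap. The median was 0.08, with 0.04 without cpdm replicate 3 and 0.05 without wild type replicate 2. The angiogenic factors Vegfa and Vegfc differed by 0.12 and -0.31, and the medians of factors and adhesion molecules were -0.03 and 0.00. Among the inhibitors, with a median of -0.09, Cxcl9, Cxcl10 and thrombospondin 1, Thbs1, at 0.70, were higher in every cpdm array, and Angptl1, at -0.42, and Col4a3, at -0.07, were lower. These shares were 23.1% and 15.4%, against 5.26% and 9.84% of all genes.

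Gria2, Tekt5 and Serpina16 were called from probe sets that were dim in at least 1 group. Gria2, an AMPA receptor subunit of neurons, had 3.68, 3.63 and 3.68 in cpdm and 4.29, 4.15 and 4.54 in wild type skin (-0.66 ± 0.13, adjusted p = 0.0453). Serpina16 had 3.92, 3.78 and 3.71 against 3.42, 3.27 and 3.22 (0.50 ± 0.10), and Tekt5, a sperm flagellum protein, had 5.09, 5.15 and 5.17 against 6.06, 5.68 and 5.61 (-0.65 ± 0.12), both with the same adjusted p. All arrays of Gria2 and Serpina16 lay within the range of the nose receptor genes, and so did the cpdm arrays of Tekt5. The receptor genes had a median difference of -0.01. Other genes described here were dim as well, among them Il1f8, Gsdmc2, Elane, Ly6g, Mmp8 and Klrb1c in all 6 arrays, and Il1f6, Gsdmc, Casp4 and Il13ra2 in all 3 wild type arrays. Another AMPA receptor gene, Gria3, was not dim, with 5.75, 5.38 and 5.73 against 6.33, 6.52 and 6.41 (-0.80 ± 0.20, adjusted p = 0.256), while Gria1 and Gria4 differed by -0.11 and -0.12.

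Genes known to respond to glucocorticoids were looked up after Zbtb16 and Fkbp5 had been seen among the largest differences. Zbtb16, a transcription factor, had 9.04, 9.49 and 9.51 in cpdm and 7.82, 8.19 and 8.41 in wild type skin, a difference of 1.21 ± 0.26 (adjusted p = 0.106). Fkbp5, a cochaperone of the glucocorticoid receptor, had 7.96, 8.34 and 8.39 against 7.00, 7.29 and 7.20 (1.07 ± 0.27, adjusted p = 0.293). Pdk4 and Tsc22d3, the leucine zipper gene GILZ, differed by 1.05 and 0.59 without overlap. None of the 19 genes was called, and the median was 0.23. In every cpdm array 7 were higher (36.8%, against 5.26% of all genes) and 2 lower (10.5%, against 9.84%). Zbtb16 and Fkbp5, which prompted the list, are among the 7 and enter the median. The share higher is thus partly set by the choice of the list. The metallothioneins Mt1 and Mt2 were the 2 lower genes, at -0.26 and -0.24, and Per1 and Dusp1 differed by 0.11 and -0.07.

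The genotype difference was then followed to later ages, where each age has arrays of its own but the SE pools the spread of all ages. Of the 8 genes that rose at 2 weeks, 6 were called higher at each of 4, 6, 8 and 10 weeks, namely Stfa3, Serpina3n, 2610528A11Rik, Il1f6, Cxcl16 and Hrnr. Stfa3 differed by 4.38, 6.00, 5.82 and 6.13 at those ages, and Il1f6 by 1.84, 3.06, 3.17 and 2.89. 2610528A11Rik differed by 2.95 at 4 weeks, and this increase of 1.81 ± 0.25 from 2 weeks passed the test of the change itself (adjusted p = 0.00194). Serpina3n was largest at 2 weeks, with 1.66, 1.70, 1.40 and 0.95 later, but its change to 10 weeks, -0.99, did not pass (adjusted p = 0.135).

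B2m went the other way, with differences of 0.33, 0.23, 0.15 and -0.17 at 4, 6, 8 and 10 weeks, none of them called. Its change from 2 to 10 weeks was -0.83 ± 0.18 (adjusted p = 0.0024), and that of H2-Q4 was -1.32 (adjusted p = 0.0019). H2-Q4 was called higher by limma at 4 weeks (0.80, adjusted p = 0.0162) and 6 weeks (0.54, adjusted p = 0.0493). In the class I list 1 member was called higher at 2 weeks, 7 at 4 weeks and 5 at 6 weeks. At 10 weeks 1 was called higher and 3 lower. The median of the class I list ran from 0.29 at 2 weeks through 0.45 at 4 weeks to -0.17 at 10 weeks, and that of class II from 0.52 to -0.55. The difference in Zbtb16 changed sign, from 1.21 to -0.81 at 4 weeks, a change of -2.02 ± 0.37 (adjusted p = 0.00801), and lay at -0.59, -0.82 and -0.95 afterwards. Fkbp5 was at -0.30 at 4 weeks, and its change of -1.37 did not pass (adjusted p = 0.137). Gria2, Tekt5 and Serpina16 were called at none of the later ages. Tekt5 changed from -0.65 to 0.37 at 4 weeks (1.02 ± 0.18, adjusted p = 0.00546).

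**Figure D3:**
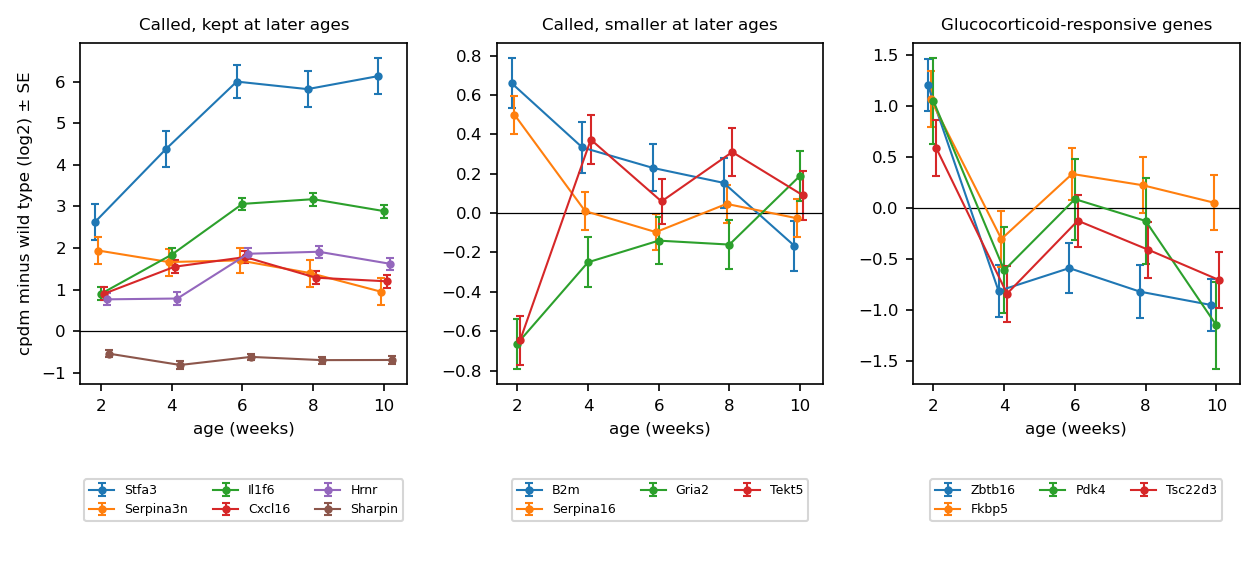
Difference in log2 signal, cpdm minus wild type, ± SE by age in weeks, for called genes that were also called later (left), the called genes B2m, Serpina16, Gria2 and Tekt5 (middle) and 4 glucocorticoid-responsive genes (right). Stfa3 reaches 6.13 at 10 weeks, B2m goes from 0.66 to -0.17 and Zbtb16 from 1.21 to -0.81 at 4 weeks.

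Across all genes the difference at 4 weeks differed from that at 2 weeks for 46 genes (0.231%), and the difference at 10 weeks for 3857 (19.3%). Gsdmc increased by 3.17, Mmp12, a macrophage elastase, by 2.79 and Gsdmc2 by 2.77 between 2 and 4 weeks. Pyy, a peptide hormone gene, went from 1.13 to 3.67, Egln3 from 0.56 to 2.61 and Slc2a1 from 0.40 to 1.39. Klk13, a kallikrein of the epidermis, went from -0.44 to 1.38.

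The genes with an unadjusted p below 0.05 at 2 weeks were followed to the later ages by direction. Of the 363 higher genes, 93 (25.6%) were called higher at 4 weeks, where 3.4% of all genes were. At 6, 8 and 10 weeks 31.1%, 25.6% and 20.1% of them were called higher, against 8.37%, 7.2% and 14.6% of all genes. The 93 genes made up 13.7% of the 678 genes called higher at 4 weeks. Of the 672 lower genes, 41 (6.1%) were called lower at 4 weeks, against 3.51% of all genes. At 6, 8 and 10 weeks 6.85%, 8.33% and 12.4% of them were called lower, against 6.08%, 10.2% and 18% of all genes. Calls in the opposite direction were most frequent at 10 weeks, with 51 of the 363 higher genes (14%) called lower and 101 of the 672 lower genes (15%) called higher.

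The call of the 11 genes depended on single arrays. Without cpdm replicate 2, and without any 1 of the wild type arrays, none of the 11 passed. Without cpdm replicate 1, 4 genes were called, of which 3 were among the 11. Without cpdm replicate 3, 4 genes were called, all of them among the 11. Leaving out 1 array could not change the sign of any of the 11 differences, since the arrays of the groups do not overlap. Over all settings Stfa3 lay at 2.49 to 2.90, Serpina3n at 1.61 to 2.14, B2m at 0.53 to 0.73 and Sharpin at -0.57 to -0.49. cpdm replicate 2 stood apart from the other cpdm arrays on the first principal component, which held 35.4% of the variance, at -20.32 against -2.81 and -7.33, with wild type arrays at 6.81 to 14.87. It had the highest mean signal of the chemokine, MHC and macrophage lists and the lowest of the pigment and cell cycle lists.

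**Figure D4:**
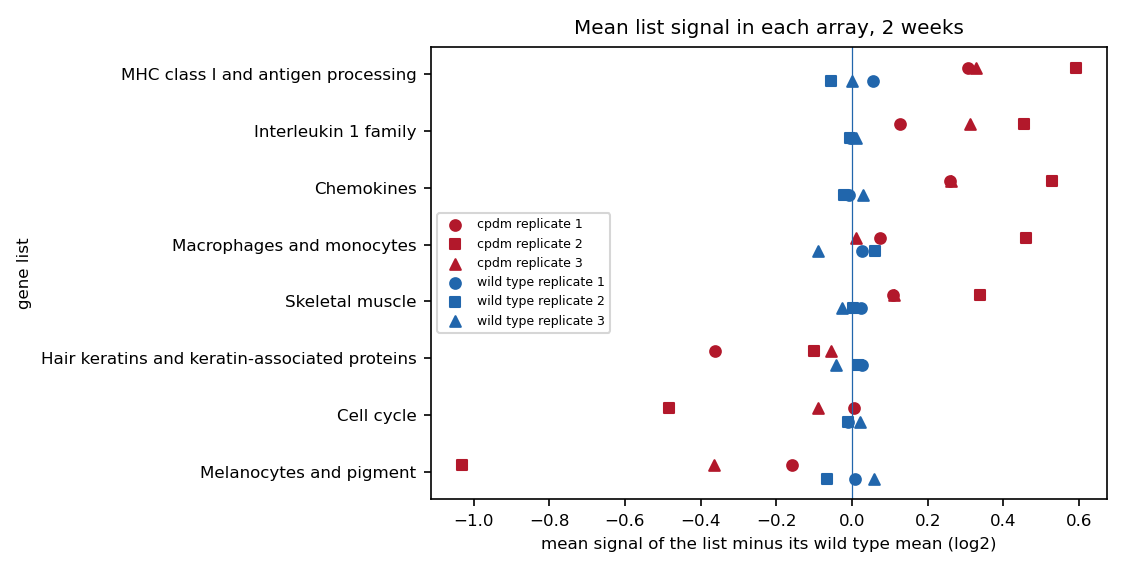
Mean log2 signal of 8 gene lists in each array of 2 weeks, minus the mean of the 3 wild type arrays; red symbols are cpdm, blue symbols wild type, and the shape gives the replicate number. cpdm replicate 2 (square) is the highest array for MHC class I genes and the lowest for the pigment list, while the wild type arrays lie close to 0.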

How the data were processed

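Skin kept in RNAlater was homogenized in TRIzol for RNA, per the labels' protocols, and hybridised to 31 Affymetrix arrays. The values used here were deposited as log2 intensities, to 2 decimals, for 35556 probe sets. Per the submitters' processing notes the authors used Affymetrix Expression Console 1.2 with RMA, and joint normalization of all arrays is not stated there. No detection call or batch was at hand, so none could be tested, and the number of arrays limits the precision. A 3' amplification kit is named in the labels, although the probe sets belong to a whole-transcript design.

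Of the probe sets, 21789 had 1 gene symbol in GEO's platform annotation, 1621 had several and 12146 had none. Entrez identifiers of 21698 were found in the RefSeq table (GRCm38.p6), which gave current symbols. The probe set with the highest mean was used for 999 genes with several, which left 19938 genes, with no filter on dim signals. limma 3.58.1 (lmFit and eBayes, R 4.3.3) was fitted to all 31 arrays as 10 group means of genotype and age, with 21 residual degrees of freedom, so that SEs pool the spread of all ages. Contrasts were cpdm minus wild type at 2 weeks and its change to later ages, two-sided, with Benjamini-Hochberg adjustment over all genes. P-values set a difference against 1 moderated estimate of the spread between mice within all 10 groups, not within the compared groups alone. The fit was tested on simulated data. Tables and figures were made with Python 3.11.15, pandas 2.3.3 and matplotlib 3.10.9.

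Named genes were all called genes, the 10 largest positive and 10 largest negative differences among other genes with an unadjusted p below 0.05 and no overlap (clones and gene models left out), the 4 members of each list with the smallest p, and all members of the LUBAC, interleukin 1, stefin and substrain lists. Other genes given beside them were chosen for their known role after their values were available. The comparison, the 48 gene lists and the rule were chosen with earlier results of these data known, and the glucocorticoid list, the nose receptor genes and the change from 2 to 10 weeks were added after seeing the data. List symbols were matched by current symbol or by an unambiguous synonym. Promoters are those of RefSeq.

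The alternatives tried were the 6 or 12 compared arrays fitted alone, probe sets averaged per gene, the 40% of genes with the lowest signal removed, a trend and robust prior, array weights, repeated quantile normalization, centring on array medians, the replicate number as a block, other thresholds and leaving out each array.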

Additional observations from a re-analysis of the deposited data

Results flagged for a closer look

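The genotype difference of 10 named genes changed between 2 and 4 weeks by limma's test of the change itself (adjusted p between 0.000424 and 0.0209), with no array shared by the ages. Named genes were chosen partly by their values at 2 weeks, which also enter the change. The part of this choice in the changes was not tested. The change, 4 weeks minus 2 weeks on the log2 scale, was 3.17 for Gsdmc, 2.79 for Mmp12, 2.77 for Gsdmc2, 2.54 for Pyy, 2.05 for Egln3, 1.82 for Klk13, 1.81 for 2610528A11Rik and 0.997 for Slc2a1. Of these 8 genes Klk13 was the 1 with a negative difference at 2 weeks, -0.44 ± 0.23. For Tekt5 the change was 1.02, from -0.65 ± 0.12 to 0.37 ± 0.12. Zbtb16 was the 1 gene whose difference went from positive to negative, by -2.02, from 1.21 ± 0.26 to -0.81 ± 0.26. Of the 10 genes, 2610528A11Rik and Tekt5 were called at 2 weeks.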

How the results depend on the processing

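The count of 11 genes called at 2 weeks was 0 at an adjusted p below 0.01, 32 when only the 6 arrays were fitted, 59 with array weights, 7 with arrays centred on their median and 0 with the replicate block. It ran from 0 to 4 when 1 array was left out. The 46 genes whose difference changed from 2 to 4 weeks were 26 at an adjusted p below 0.01, 142 below 0.1, 523 with only the arrays compared and 611 with array weights. At an unadjusted p below 0.05 at 2 weeks limma gave 927 genes with the block and 674 to 1139 without 1 array, against 1035. Over 19938 genes, counts of this size can arise at that threshold without any difference, so they do not show differences that remained.

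The 11 genes were all kept with array weights, probe set means or a trend and robust prior, 10 with quantile normalization (Hrnr at an adjusted p of 0.1004) and 7 with only the 6 arrays, where B2m, Gria2, Serpina16 and Tekt5 were lost. No called gene changed sign under any alternative run, and in the fits without 1 array none could, since their arrays do not overlap. Whether the replicate numbers pair the samples is not known. Deviations of same-numbered arrays correlated at -0.0045, 0.0565 and 0.0502, and cpdm replicate 1 correlated best with wild type replicate 3. Deviations from means of 3 arrays are too few to decide it. Of 241 named genes, 20 that were not called passed in some alternative, such as Krt6b, Il1f9, Ccl19, Zbtb16 and Krt1 with only the 6 arrays. The medians of 31 of 49 lists kept their sign under every alternative. The medians of the other 18, such as the interferon, stefin, serpin, sebaceous and mast cell lists, lay near 0 and turned under at least 1. Quantile normalization moved the median of all genes by 0.01.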

Other observations

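Several of the most negative differences at 2 weeks belong to genes outside the lists, none of them called. Prr5l, which binds mTOR complexes, had 7.12, 5.84 and 6.90 in cpdm and 7.57, 7.40 and 7.48 in wild type skin. Scube3, a secreted growth factor of the dermal papilla, had 6.37, 5.76 and 5.92 against 6.92, 6.50 and 6.68 (-0.68 ± 0.15, adjusted p = 0.106), and its difference changed by 1.02 to 10 weeks (adjusted p = 0.0013). Stc1, stanniocalcin, had 6.31, 5.87 and 6.29 against 6.93, 6.85 and 6.62, and the kinase gene Hunk 7.76, 7.30 and 7.52 against 8.17, 8.17 and 8.18. In Prr5l, Scube3, Stc1 and Hunk cpdm replicate 2 was the lowest array. Cpz, a secreted carboxypeptidase that binds Wnt proteins, differed by -0.69 at 2 weeks and was called lower at each later age, by -1.30, -1.74, -1.33 and -1.35.

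Pyy had 7.26, 7.40 and 7.43 in cpdm and 6.46, 6.27 and 5.97 in wild type skin (1.13 ± 0.32, adjusted p = 0.445). Its difference was 3.67 and 3.66 at 4 and 6 weeks, and 1.23 and 0.49 at the last ages. Gsdma3, a gasdermin of the follicle and upper epidermis, had 7.72, 8.17 and 7.95 against 6.73, 6.93 and 6.89, and its later differences were 2.35, 1.35, 0.75 and 1.75. Il13ra2 differed by 1.83, 2.11, 0.85 and 0.33 at 4, 6, 8 and 10 weeks.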
